A study of Mus musculus with 4 samples.

Results

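Astrocyte precursors were described in 1 single-cell library of mouse forebrain at embryonic day E18.5, as 153 of the 1148 barcodes that passed the quality filter (13.3%, exact Clopper-Pearson 95% interval 11.4 to 15.4), of 1153 barcodes in the library and 6341 in the series. A barcode was a member if it held at least 1000 detected genes and at most 10% of its unique molecular identifiers (UMIs, counted RNA molecules) from mitochondrial genes, had a UMI of at least 3 of the 6 genes Sparcl1, Pla2g7, Slc6a11, Grm5, Tnc and Aqp4, had none of Pdgfra or Sox10, did not hold both Pax6 and Hopx, and held fewer than 3 of the 6 ependymal genes Crym, Fxyd1, Riiad1, Tppp3, S100a6 and Nme5. These values chose the members, so the levels of those genes, and any gene that moves with them from cell to cell, describe the choice and were not tested.

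The study sorted cells by green fluorescence from embryos that carried both reporters, GFP and RFP, out of a cross of heterozygous Nestin-GFP with homozygous DCX-mRFP mice, in which the green reporter follows Nestin, a gene of neural stem and progenitor cells, and the red reporter follows doublecortin, a gene of young neurons. All 4 groups came from this cross and this sort and had 1 library each: the cortex and the ventral ganglionic eminence (GE), both at the earlier age E15.5 and at E18.5. The number of embryos behind a library, their strain background and their sex were not given in the sources used here. With 1 library a group there was no replicate of any comparison, and the intervals below cover counting error only.

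The library that holds these members is labelled GE E18.5, while its deposited file name gives cortex. The dorsal (cortical) genes Emx1, Neurog2 and Eomes were on the side of the file name rather than of the label, as shown further on, so it is called the library labelled GE E18.5 throughout. The other E18.5 library is labelled cortex E18.5. The same rule chose 230 of 3104 barcodes there (7.41%, 6.51 to 8.39). At E15.5 it chose 14 of 1168 barcodes under the cortex label (1.20%) and 18 of 876 under the GE label (2.05%). The few E15.5 barcodes were deep, with medians of 32313 and 33792.5 UMIs against 9642 in the members, and 16 of the 18 in the library labelled GE E15.5 carried Eomes, a gene of cortical intermediate progenitors. Between 0 and 7 cell barcodes were shared by any pair of libraries, and 1 member shared its barcode with the library labelled cortex E18.5. A doublet score marked 11 barcodes of the library, 2 of them members.

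Astrocyte precursors arise from radial glia, the stem cells that line the ventricle, after most neurons have been made. Notch signalling, acting through the HES repressors, and BMP signalling, acting through SMAD proteins and the ID genes, hold such cells in a glial, undifferentiated state, while nuclear factor I proteins and SOX9 open the astrocyte genes. Young astrocytes then take up glutamate and GABA, couple through gap junctions, place aquaporin on their end-feet and secrete lipoproteins and matrix proteins that act on synapses.

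Promoter sequences are shown for a Notch target and for a pair of immediate early genes, because these stood among the results below: Hes5 is the Notch effector that was higher in the members than in the other barcodes, and Fos and Fosb were higher than in radial glia. Each is the 250 bases before the RefSeq start, 5′ to 3′ on the gene's strand, on GRCm38.p6. In the Hes5 promoter (chr4:154960673-154960922, plus strand) the capitals mark TGGGAA or its reverse complement TTCCCA, the core bound by the Notch partner RBPJ. In the Fos (chr12:85473640-85473889, plus strand) and Fosb (chr7:19310046-19310295, minus strand) promoters they mark TGACG or CGTCA, the core of the site bound by CREB.
Hes5: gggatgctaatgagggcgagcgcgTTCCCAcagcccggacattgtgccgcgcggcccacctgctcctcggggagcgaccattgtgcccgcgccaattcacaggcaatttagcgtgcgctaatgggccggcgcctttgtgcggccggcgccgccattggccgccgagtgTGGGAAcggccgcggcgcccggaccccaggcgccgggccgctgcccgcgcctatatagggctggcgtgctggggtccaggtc
Fos: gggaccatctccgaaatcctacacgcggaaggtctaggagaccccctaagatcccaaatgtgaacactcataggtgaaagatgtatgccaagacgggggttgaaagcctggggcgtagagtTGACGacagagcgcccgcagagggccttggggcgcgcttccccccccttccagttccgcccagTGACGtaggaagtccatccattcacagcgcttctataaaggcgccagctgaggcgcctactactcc
Fosb: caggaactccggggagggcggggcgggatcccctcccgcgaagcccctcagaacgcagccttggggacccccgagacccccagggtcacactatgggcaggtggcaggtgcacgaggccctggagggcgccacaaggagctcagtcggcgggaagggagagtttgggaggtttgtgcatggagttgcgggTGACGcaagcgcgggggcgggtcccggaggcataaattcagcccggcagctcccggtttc
The RBPJ letters stood at 2 places in the Hes5 window, beginning 226 and 82 bases before the start, and in 21.6% of the 32851 RefSeq promoter windows of this length on either strand. The CREB letters stood 129 and 66 bases before the start of Fos and 60 bases before that of Fosb, and in 17.8% of all windows. In GENCODE M21 the Hes5 window lies outside the gene and overlaps an exon of Gm20421 on the other strand by 153 bases, the Fos window overlaps no gene, and the Fosb window overlaps the first exon of Fosb by 6 bases. These matches describe the letters, and binding was not measured.

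The members' depth was like that of their library. Their median was 9642 UMIs (lowest 4113, highest 32788) and 3549 genes, with a median of 1.60% mitochondrial UMIs. The other 995 barcodes past the filter had a median of 10205 UMIs and reached 102043, so the deepest of them may hold more than 1 cell; whether they do was not tested. For comparison within the library, radial glia were the 100 barcodes with both Pax6 and Hopx and without Pdgfra, Sox10, Eomes or 3 ependymal genes (median 11368.5 UMIs). Oligodendrocyte precursors were the 240 barcodes with at least 3 of 6 lineage genes, Pdgfra or Sox10 among them (median 11002.5 UMIs). The 6 were Pdgfra, Sox10, Cspg4, Olig1, Gpr17 and Lhfpl3. Of the radial glia, 66 also had at least 3 of the 6 rule genes, so they differ from the members mainly by holding Pax6 and Hopx together. Levels are UMIs summed over a group as a share of its UMIs, in counts per 1000000 (CPM), without mitochondrial, ribosomal protein and haemoglobin genes.

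The 6 rule genes set the scale of the choice. Sparcl1, a secreted matrix protein of astrocytes, was found in 140 of the 153 members, with a median of 7 UMIs a cell, at 1097 CPM (95% interval 1043 to 1153) against 217 in the other barcodes. Tnc, the matrix protein tenascin C, was found in 138 members at 614 CPM against 216. Slc6a11, the GABA transporter GAT-3, was found in 111 members at 177 CPM against 30.6. Grm5, a metabotropic glutamate receptor of immature astrocytes, was found in 99 members at 195 CPM against 39.9. Pla2g7, a secreted phospholipase that degrades platelet-activating factor, was found in 93 members at 265 CPM against 52.8. Aqp4, the water channel of end-feet, was the least often detected, in 49 members, at 93.4 CPM against 20.7. Of the 49 members with Aqp4, 40 also held Pla2g7 and 49 held Tnc.

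Such shares also move with depth, and the part of free RNA in them was not tested. After every cell was thinned to 5000 UMIs, which left out 13 members, Slc6a11 was found in 52.1% of members and in 3.70% of young neurons, which should lack it, and Aqp4 in 27.1% and 2.22%. Sparcl1 was found in 79.3% and 20.4%. The young neurons were 311 barcodes with at least 5 of 8 neuronal genes that were no members (median 8167 UMIs), and 54 of them held at least 3 rule genes themselves, so their shares are no pure background. Only members were kept out of them, so a young neuron could also count as a radial glial cell or an oligodendrocyte precursor.

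The threshold cut a gradient. Among barcodes that met every other criterion, 61 held 2 rule genes, just outside, and 49 held 3, just inside. The summed level of a list of 40 astrocyte identity genes was 7384 CPM with 2 rule genes and 11749 with 3, and went on to 16210, 21386 and 27110 CPM with 4, 5 and 6. The summed level of 21 pan-neuronal genes was 10508 CPM with 2 rule genes and 5252 with 3. Stmn2, a gene of growing neurites, was found in 27.9% of the barcodes with 2 and in 8.16% of those with 3. Slc1a3 was found in 77.0% and 98.0% of them. The members themselves ran from 49 cells with 3 rule genes through 55 with 4 and 31 with 5 to 18 with all 6.

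**Figure D1:**
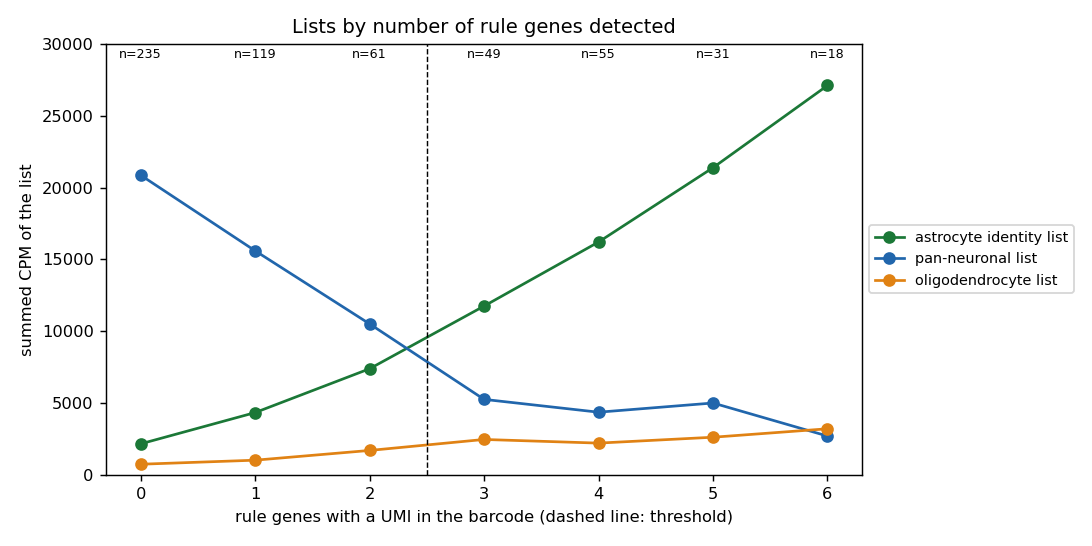
Summed level (CPM) of the astrocyte identity, pan-neuronal and oligodendrocyte lists, by the number of the 6 rule genes with a UMI, over barcodes that met the other criteria; n is the number of barcodes at each point and the dashed line is the threshold. The astrocyte list runs from 2154 CPM with 0 rule genes to 27110 with 6, and the pan-neuronal list from 20865 to 2698.

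Against the other barcodes of the library, 195 of 7895 measured genes were called higher in the members (2.47%) and 320 lower (4.05%). Measured genes reached 20 CPM in at least 1 group, and a call needed a 2-fold ratio or more whose exact 95% interval excludes 1. After thinning, 424 genes were higher and 469 lower, and with the mean of per-cell CPM 356 and 395. Genes of astrocytes, glutamate and amino acid carriers, Id1, Id3 and Hes5 were among those called higher, and neuronal, GABAergic and oligodendrocyte genes among those called lower. Since the rule sorts cells by co-expressed genes of this very library, these calls describe what was chosen. The other barcodes include the radial glia and the oligodendrocyte precursors, which are taken up separately further on.

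Of the 33 measured genes of the astrocyte identity list, 17 were called higher and 0 lower, with a median log2 ratio of 1.01 against -0.04 over all measured genes. Slc1a3, the glutamate transporter GLAST, was found in 152 of 153 members at 1778 CPM against 635 (ratio 2.80, 2.67 to 2.93). Aldh1l1, a folate enzyme used to mark astrocytes, was found in 113 members at 250 CPM against 106. Apoe, the main lipoprotein of astrocytes, stood at 1784 CPM against 778. Fgfr3, an FGF receptor of glial progenitors, stood at 147 CPM against 42.8. Gfap, the intermediate filament of mature and reactive astrocytes, was found in 14 members at 17.1 CPM against 14.2. Both values were under the 20 CPM minimum, so Gfap could not be called. Sparc, a matrix protein related to Sparcl1, was not called either and stood on the other side, at 134 CPM against 239, and 57 of the 60 members with Sparc also held Sparcl1. Clu, clusterin, another secreted astrocyte protein, was likewise lower without a call, at 94.1 CPM against 158.

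Uptake genes, which share Slc1a3, Slc1a2, Slc4a4 and others with the astrocyte list, followed. Of 17 measured genes of the list of transporters and channels, 10 were called higher and 0 lower (median log2 ratio 1.15). Slc6a9, the glycine transporter GlyT1, stood at 21.4 CPM against 3.61 (ratio 5.91, 3.53 to 9.84). Slc7a11, the cystine-glutamate exchanger, stood at 30.6 CPM against 6.55, and Slc4a4, a bicarbonate cotransporter, at 158 CPM against 38.7. Slc1a2, the glutamate transporter GLT-1 that dominates in adult astrocytes, stood at 224 CPM against 101. Grm3, a metabotropic glutamate receptor of astrocytes, stood at 91.9 CPM against 13.5 (ratio 6.82, 5.32 to 8.73) and was found in 67 members. Pla2g3, a secreted phospholipase, had the highest ratio of the named genes, 10.2 (6.77 to 15.4), but at a low level of 42.8 CPM and in 24 members, 5 of which held 31 of its 60 UMIs. Set against radial glia alone, 2 of 17 measured genes of the list of transporters and channels were higher and 0 lower (median 0.40).

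Receptors were divided. Of 22 measured glial receptor genes 5 were higher than in the other barcodes and 2 lower (median 0.62). The higher ones were Grm3, Fgfr3, Bmpr1b, Gabrg1, a GABA receptor subunit, at 39.2 against 12.8 CPM, and Lifr, the receptor of leukaemia inhibitory factor, at 29.9 against 14.8. The lower ones were Gria1 and Gria4, subunits of AMPA receptors, at 4.99 against 52.2 and 7.84 against 24.5 CPM. Among growth factor receptors Erbb2 stood at 21.4 against 8.11 CPM, and Erbb4, which interneurons use, at 7.13 against 44.4.

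Most secreted and matrix genes were not called. Of 18 measured synaptogenic and secreted genes 4 were higher and 0 lower: Ptn, the growth factor pleiotrophin, at 5641 against 2384 CPM, Igfbp2, an IGF binding protein, at 1028 against 407, Tgfb2 at 217 against 98.5 and Chrdl1, a BMP antagonist that astrocytes secrete onto synapses, at 37.8 against 13.6. Of 14 measured matrix genes 5 were higher and 2 lower. Ncan, the proteoglycan neurocan, stood at 1177 against 429 CPM and Itga6, a laminin receptor subunit, at 161 against 58.3. The lower ones were Cspg4, a proteoglycan of oligodendrocyte precursors and pericytes, at 2.85 against 26.0 CPM, and Vtn, vitronectin, at 1.43 against 46.3, of which 102 of 474 UMIs came from 1 barcode of the others. Against radial glia 0 of 19 secreted genes were higher and 2 lower, Sparc and Thbs1, the latter at 7.13 against 22.8 CPM.

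Genes of the BMP, ID and Notch lists were called in part. Of 14 measured genes of the BMP and ID list, 6 were called higher and 0 lower (median 0.85). Id3, an inhibitor of helix-loop-helix factors, stood at 1633 CPM (1567 to 1702) against 365 and was found in 124 members; it is also a gene of the astrocyte list. Id1, a close relative, stood at 481 CPM against 135. Bmpr1b, a BMP receptor, stood at 47.7 CPM against 12.6, and Nog, which binds and blocks BMPs, at 53.4 CPM against 15.7. Of 26 measured radial glia and Notch genes, 8 were higher and 2 lower (median 0.72). Hes5, whose promoter is printed above, stood at 1157 CPM (1101 to 1214) against 345 and was found in 142 members. The pair that was lower was Dll1 and Dll3, which encode Notch ligands: Dll1 at 46.3 CPM against 124, and Dll3 at 41.3 CPM against 220. Set against radial glia alone, 0 of 15 measured BMP and ID genes were higher and 1 lower (median 0.19). Of 26 measured radial glia and Notch genes, 2 were higher than in radial glia, Dll1 and Dll3, and 0 lower (median 0.05). Hes5 was found in 89 of the 100 radial glia, with a median of 9 UMIs a cell in both groups.

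Transcription factors of gliogenesis hardly separated the members from the rest. Of 25 measured factors 2 were called higher and 2 lower (median -0.18). The higher ones were Etv4, a transcription factor downstream of FGF signalling, at 98.3 against 39.4 CPM, and Rorb, a nuclear receptor, at 206 against 88.7; the lower ones were Zeb2, at 157 against 320, and Hopx, a gene of the rule. Nfia, of the nuclear factor I family, stood at 511 CPM in the members and 438 in the others, and Sox9 at 315 and 383. Olig2, a factor of oligodendrocyte precursors and of some astrocytes, was found in 109 members at 396 CPM against 493. Egfr, the epidermal growth factor receptor, was found in 96 members at 176 CPM against 106. None of these 4 was called.

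Genes of other cell types were mostly low. Of 19 measured pan-neuronal genes 16 were lower and 0 higher, with Stmn2 at 29.2 CPM against 192 and Dcx at 48.5 against 219. Of 15 measured GABAergic genes 12 were lower, with Dlx2, a factor of ventral progenitors and interneurons, at 20.7 CPM against 208. Of 12 measured oligodendrocyte genes 8 were lower, 2 of them by the rule itself (Pdgfra and Sox10). Serpine2, a protease inhibitor in that list, was higher, at 537 CPM against 238. The summed levels in members and others were 10.7 and 83.2 CPM for 12 endothelial genes (9 of them at 0 in the members), 62.0 and 254 CPM for 10 mural genes (2 at 0), 18.53 and 15.1 CPM for 12 microglial genes (10 at 0), 8.55 and 187 CPM for 12 fibroblast genes (6 at 0), 69.1 and 168 CPM for 20 ependymal genes (8 at 0) and 3.56 and 2.83 CPM for 11 choroid plexus genes (8 at 0). The rule fixed the direction of 2 of these lists: Pdgfra, which it set to 0, held 1633 of the 1912 UMIs of the fibroblast list in the others, and barcodes with 3 of 6 ependymal genes were left out. Summed levels of the 8 erythroid genes were 11.4 and 8.11 CPM (4 at 0 in the members), and those of 7 Cajal-Retzius genes 3.56 and 23.7 CPM (5 at 0). The part of such RNA in the comparisons was not tested.

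**Figure D2:**
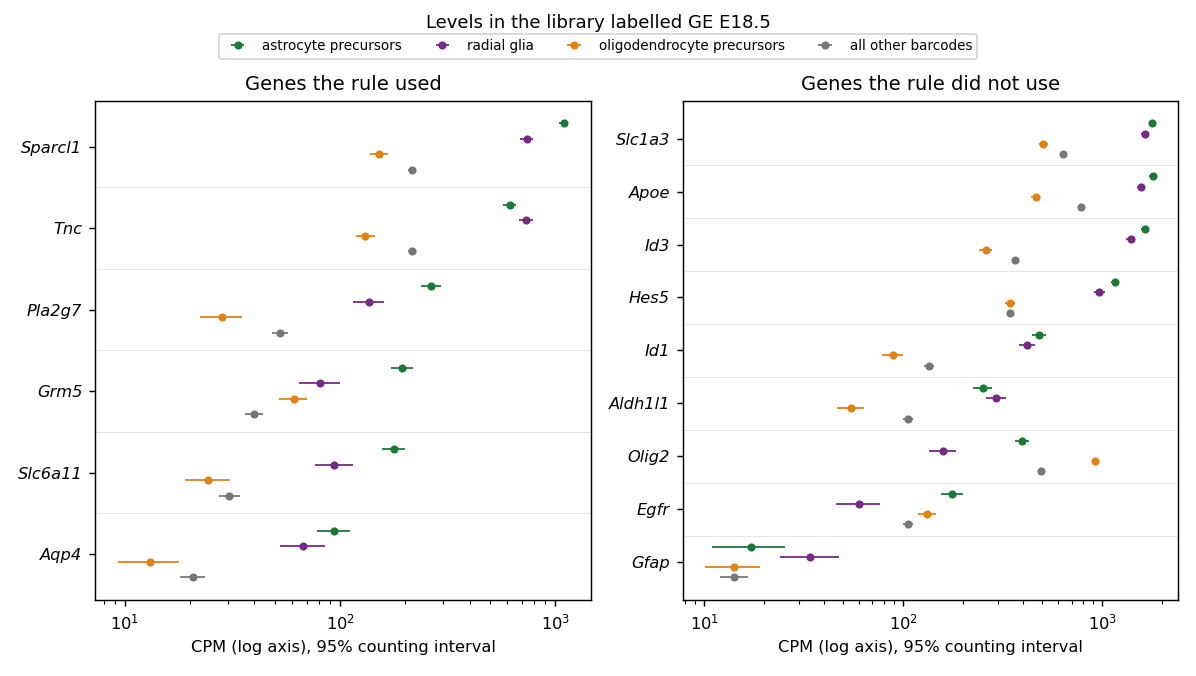
Level (CPM, log axis) of the 6 rule genes (left) and of 9 genes the rule did not use (right) in astrocyte precursors, radial glia, oligodendrocyte precursors and all other barcodes of the library labelled GE E18.5, with 95% counting intervals. Slc1a3 stands at 1778 CPM in astrocyte precursors and 1639 in radial glia, while Olig2 stands at 396 and 158 and at 919 in oligodendrocyte precursors.

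Radial glia differed from the members in fewer genes than the other groups did, at 1053656 counted UMIs against 2908829 in oligodendrocyte precursors, so smaller differences could be resolved in the latter. Against them 85 of 7752 measured genes were called higher in the members (1.10%) and 107 lower (1.38%), against 190 and 154 after thinning. As a list the astrocyte genes stood close to the background of all genes: of 34 measured, 3 were higher (Ramp1, Timp4 and Btbd17) and 1 lower (Clu), with a median log2 ratio of 0.04 against 0.00 over all measured genes. Slc1a3 stood at 1778 CPM in the members and 1639 in radial glia, Aldh1l1 at 250 and 292, Aldoc, the brain isoform of aldolase, at 1167 and 1696, and Apoe at 1784 and 1560. Of the rule genes themselves Grm5 was 2.41-fold higher in the members (1.88 to 3.11), while Aqp4 stood at 93.4 and 67.4 CPM, with a UMI in 32.0% of both groups, and Tnc at 614 and 733 CPM. The summed level of the astrocyte list was 16774 CPM in the members and 18058 CPM in radial glia, so the astrocyte label does not by these genes set the members apart from the radial glia of their own library. The rule separates them by Pax6 and Hopx: 93 members held Pax6 alone, 15 Hopx alone and 45 neither.

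Immediate early genes, the Olig genes and some genes of growth factor signalling were called against radial glia. Of 11 measured immediate early and dissociation genes 5 were higher in the members and 0 lower, with a median of 0.96. Fos stood at 185 CPM against 58.8 (ratio 3.14, 2.37 to 4.21), Fosb at 46.3 against 11.4, Junb at 28.5 against 2.85 (ratio 10.0, 3.19 to 50.6, from 40 and 3 UMIs) and Egr1 at 121 against 39.9; Fos, Fosb and Egr1 encode factors switched on within minutes of a stimulus, which can be the dissociation of the tissue. Fos was found in 65 members, and 5 of them held 84 of its 259 UMIs. Against oligodendrocyte precursors 1 of 12 measured genes of this list was higher and 1 lower (median 0.03). Against the other barcodes 3 of 11 were higher and 0 lower (median 0.21). Egr1 was found in 64 of the 153 members and in 173 of the 240 oligodendrocyte precursors. The mitochondrial share was a median of 1.60% in the members and 1.86% in radial glia, and the part of handling in these genes was not tested. Of 15 measured FGF, EGF and ERK genes 3 were higher and 0 lower (median 0.13). Egfr stood at 176 CPM against 59.8 (ratio 2.95, 2.22 to 3.95), Olig2 at 396 against 158 and its neighbour Olig1 at 817 against 366. Dusp6 and Spry4, feedback genes of the ERK pathway, stood at 47.0 against 15.2 CPM and at 23.5 against 8.54 CPM. Serpine2 stood at 537 against 253 CPM.

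Some of the calls rested on few cells. Of 13 measured genes of cortical intermediate progenitors 4 were higher and 0 lower (median 0.86): Eomes, Neurog2 and the Notch ligand genes Dll1 and Dll3. Eomes was found in 13 members, 5 of which held 76 of its 90 UMIs, and its absence from radial glia is set by the definition of that group. The members were not cleared of Eomes, so the count of 4, with Dll1 and Dll3, can go with these definitions. Neurog2, a neurogenic factor found in 13 members, 8 of them with Eomes, was called higher at 106 CPM against 14.2, and 132 of its 149 UMIs were in 5 cells. In the 140 members without Eomes its log2 ratio to radial glia turned to -1.51, so its direction here rests on the members that also carry Eomes. On the lower side Fgf15 (25 UMIs), Isg15 (29 of 46 UMIs), Bst2 (28 of 45 UMIs) and Ifitm3 (85 of 142 UMIs) took most of their radial glial counts from a single barcode. Clu, at 94.1 against 250 CPM, and Sparc, at 134 against 370 CPM, were called lower and were spread over 63 and 65 of the 100 radial glia. Slc14a2, a urea transporter gene, at 19.2 against 117 CPM, and Adamts18, a secreted protease, at 14.3 against 69.3 CPM, were also lower. Id4, an ID protein of neural stem cells, at 251 against 479 CPM, did not reach the 2-fold limit.

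Oligodendrocyte precursors, the other glial precursors of the library, were farther away. Against them 355 of 7960 measured genes were higher (4.46%) and 382 lower (4.80%), against 648 and 551 after thinning. Of 34 measured astrocyte genes 26 were higher and 1 lower (median log2 ratio 1.26 against -0.04 over all), the lower one being Gpr37l1, a receptor gene that oligodendrocyte precursors also use, at 12.1 against 30.9 CPM. Of 17 measured uptake genes 12 were higher and 0 lower, and of 25 radial glia and Notch genes 13 were higher. Grm3 was 12.2-fold higher (7.69 to 20.1) and Cd44, a hyaluronan receptor of astrocyte-restricted precursors, stood at 24.2 CPM against 2.41. Id3 stood at 1633 CPM against 259, and of 14 measured BMP and ID genes 9 were higher and 1, Bmp7, lower at 31.4 against 66.3 CPM.

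Lineage genes of oligodendrocytes were of 2 kinds in the members. Those of committed precursors were at or near 0: Gpr17, a receptor of cells about to differentiate, had 1 UMI in the 153 members (0.713 CPM against 79.4), Lhfpl3 had 2 UMIs (1.43 CPM against 147) and Bcas1, a gene of early myelinating cells, had 4 UMIs (2.85 CPM against 116). Olig1 and Olig2 were well detected, with a UMI in 133 and 109 members and both in 101, at 817 and 396 CPM, below the 2667 and 919 CPM of oligodendrocyte precursors. Gpr17, Lhfpl3 and Olig1 were among the genes that chose the oligodendrocyte precursors, so their levels in that group describe the choice. Bcan, a proteoglycan of both lineages, at 516 against 439 CPM, and Egfr, at 176 against 132 CPM, were not called. Pdgfra and Sox10 were at 0 by the rule, and a cell with a few missed molecules of either gene would enter the members; how many did was not tested.

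**Figure D3:**
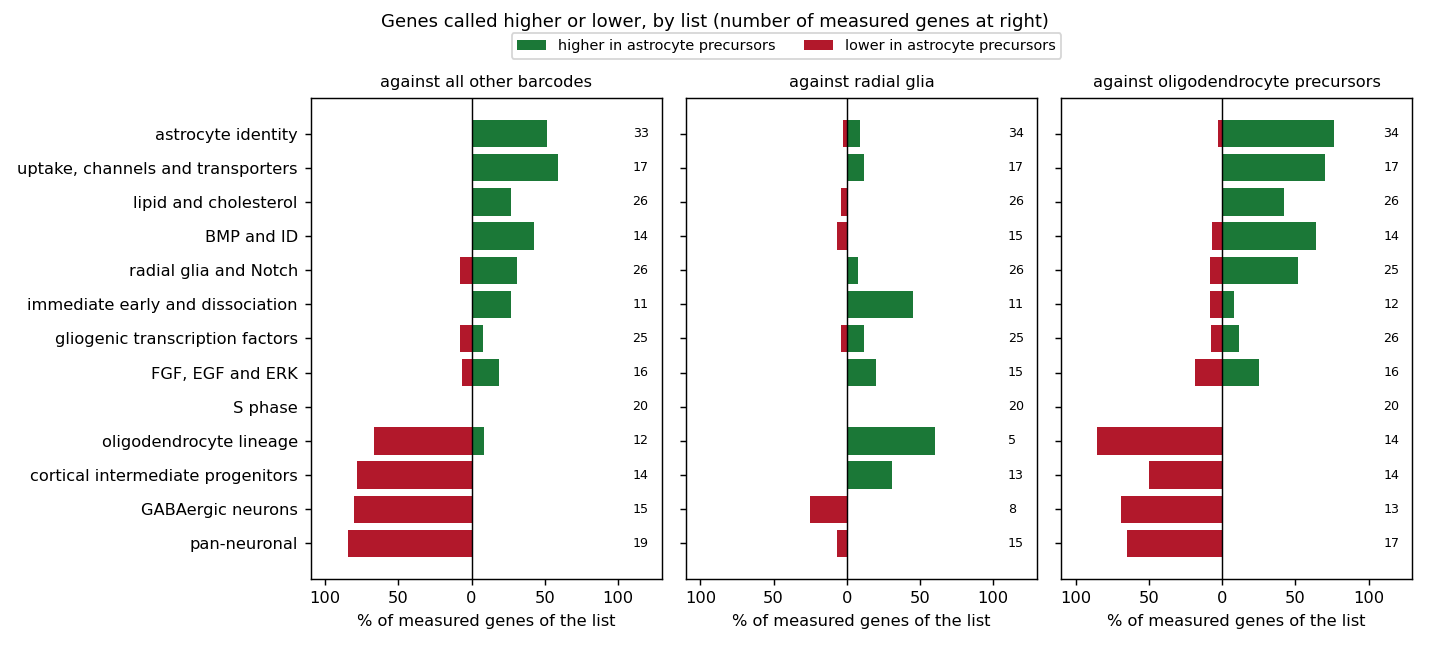
Share of the measured genes of 13 lists called higher (right, green) or lower (left, red) in astrocyte precursors, against all other barcodes, radial glia and oligodendrocyte precursors of the same library; the number at the right is that of measured genes. The astrocyte identity list has 17 of 33 genes higher against all others, 26 of 34 against oligodendrocyte precursors and 3 of 34 against radial glia.

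The members did not form 1 uniform group. Of the 96 members with Egfr and the 14 with Gfap, 1 held both. Aqp4 and Gfap met in 9 members, of 49 with Aqp4. The members were therefore described by a split on each of 4 genes, chosen after the values were seen; a split on a gene favours deep cells on the side where it is detected, and the groups had medians of 10014 and 9309 UMIs with and without Egfr, and 8330 and 10838.5 UMIs with and without Aqp4. The values are descriptions with no count of calls.

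In the 96 members with Egfr, Olig2 stood at 511 CPM against 177 in the other 57 and Olig1 at 1068 against 340. Grm5, a rule gene, stood at 243 against 103 CPM. Apoe went the other way, at 1307 CPM with Egfr and 2689 without, as did Aldoc at 815 and 1833, Aqp4 at 50.1 and 175, Sparc at 66.4 and 262, Clu at 57.7 and 163 and Id4 at 134 and 472. Gfap stood at 1.09 CPM with Egfr, from 1 UMI, and at 47.4 without. Slc1a3, at 1760 and 1812 CPM, and Nfia, at 509 and 516, had ratios whose intervals include 1. Members with Egfr thus held more of the Olig genes, and members without it more Apoe, Aldoc, Aqp4, Sparc, Clu, Id4 and Gfap. The share with at least 4 G2/M genes was 55.2% with Egfr and 42.1% without.

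The split on Aqp4 gave a second view of the same cells. In the 49 members with Aqp4, Apoe stood at 3991 CPM against 944 in the other 104, Sparcl1 at 1963 against 767, Aldoc at 1834 against 912, Sparc at 274 against 80.7, Clu at 194 against 56.1 and Gfap at 49.1 against 4.92. Olig2 stood at 225 CPM with Aqp4 and 461 without. Egfr, at 181 and 174 CPM, and Grm5, at 202 and 192, had ratios whose intervals include 1. Fos stood at 354 CPM with Aqp4 and 120 without. The share with at least 4 G2/M genes was 36.7% with Aqp4 and 56.7% without, and Apoe, Aldoc and Gfap were also lower in dividing members, as shown next. In the splits on Olig2 and on Pax6, Slc1a3 stood at 1761 CPM with Olig2 and 1831 without, and at 1626 with Pax6 and 2068 without.

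Many of the members were dividing. At least 4 of 24 G2/M genes had a UMI in 77 of the 153 (50.3%, 42.1 to 58.5), against 65.0% of radial glia, 38.3% of oligodendrocyte precursors, 36.3% of the young neurons and 42.8% of the other barcodes. After thinning to 5000 UMIs the shares were 42.1% (33.9 to 50.8), 52.1%, 26.5%, 30% and 34.0%. The young neurons thus stood above oligodendrocyte precursors after thinning and below them before it. These groups overlap, since a barcode could count in both, and the deepest barcode of each had 102043 UMIs. The interval of the members overlapped that of radial glia (41.6 to 62.4). Mki67, a protein of cycling cells, was found in 62 members at 227 CPM, against 229 CPM in radial glia and 172 CPM in the other barcodes. In the other E18.5 library it stood at 173 CPM in the 230 barcodes that the same rule chose and at 283 CPM in the rest.

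Between the 77 dividing members and the other 76, 446 of 7998 measured genes were called higher in dividing members (5.58%) and 412 lower (5.15%). All 24 G2/M genes, which made the groups, and 16 of 20 S-phase genes were higher, which goes with the definition. Dividing members were deeper, with a median of 13148 UMIs against 7229. Scaling changed the balance of calls here: 52.0% of called genes were higher with plain totals, against 64.2% (529 higher and 295 lower) with TMM factors and 64.9% (537 and 290) with DESeq2 size factors, which shifted all log2 ratios by 0.11 and 0.12.

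Astrocyte genes made up less of the RNA of dividing members. Of 34 measured astrocyte identity genes 13 were lower and 0 higher, with a median log2 ratio of -0.85 against -0.07 over all measured genes, and the summed list stood at 12482 CPM against 23892. Apoe stood at 864 CPM in dividing members and 3311 in the others, Aldoc at 610 and 2090, Aldh1l1 at 174 and 377 and Slco1c1, a thyroid hormone carrier, at 81.1 and 260. Aqp4 was found in 23.4% of dividing members at 32.0 CPM and in 40.8% of the others at 195 CPM, although the dividing members were deeper. Its level rests on few cells: of its 131 UMIs in all members, 1 member held 32 and 5 held 60. Gfap stood at 3.43 CPM, from 3 UMIs, against 39.8.

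Several progenitor genes were not called between dividing and other members. Id3, at 1478 and 1891 CPM, and Hes5, at 1011 and 1398 CPM, were below the 2-fold limit, as were Slc1a3 at 1471 and 2286 CPM, Olig2 at 438 and 326 CPM and Egfr at 171 and 184 CPM. Of the rule genes Sparcl1, Pla2g7 and Aqp4 were lower in dividing members, and Tnc, Slc6a11 and Grm5 were not called. Of 11 measured immediate early genes 4 were lower and 0 higher, among them Fos at 119 and 294 CPM and Fosb at 26.3 and 79.6 CPM. Nfatc4, a calcium-regulated transcription factor, had the lowest ratio of the named genes, but from 1 and 16 UMIs.

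**Figure D4:**
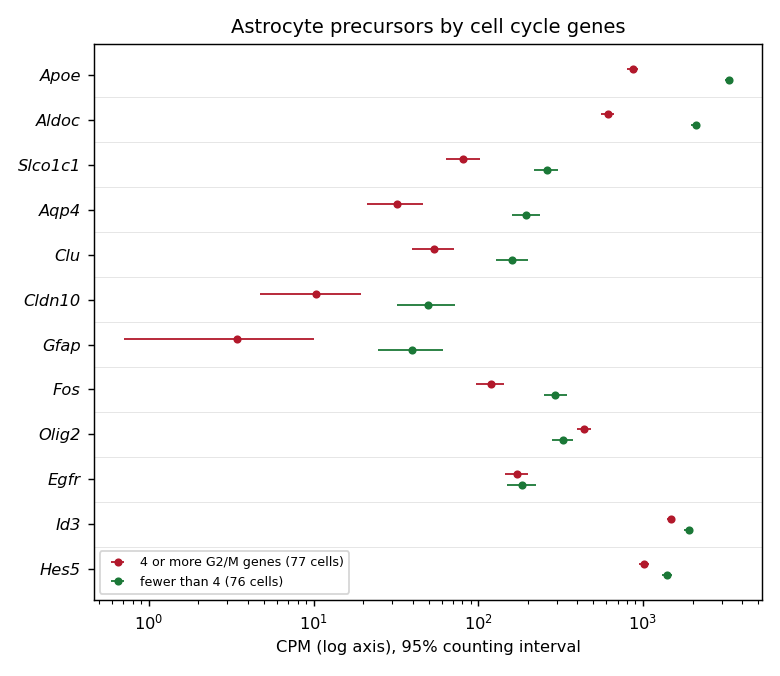
Level (CPM, log axis) of 12 genes in the 77 astrocyte precursors with at least 4 G2/M genes (red) and the other 76 (green), with 95% counting intervals. Apoe stands at 864 and 3311 CPM and Aqp4 at 32.0 and 195, while Egfr at 171 and 184 has overlapping intervals.

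The genes that the reporters follow, Nes and Dcx, were measured, and their levels are not those of the reporters. Nes, the gene behind the green reporter, had a UMI in 75.2% of members at 252 CPM, against 155 CPM in the other barcodes. Dcx, behind the red one, had a UMI in 16 members at 48.5 CPM against 219. Nes was below the 2-fold limit and was not called, while Dcx was called lower. Radial glia stood close to the members, with 239 CPM of Nes and 51.3 CPM of Dcx.

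The same rule in the library labelled cortex E18.5 gave 230 barcodes with a median of 8290.5 UMIs, and 14 of them were scored as doublet-like. Against these, 145 of 7715 measured genes were higher in the members (1.88%) and 173 lower (2.24%), against 229 and 197 after thinning. Each library is 1 sample, so region, embryo and library cannot be told apart. Past the quality filter, 331 barcodes here and 395 there held at least 3 rule genes. Both Pax6 and Hopx were found in 131 of them here and 23 there, and at least 3 ependymal genes in 44 and 135. Pdgfra was found in 58 and 16, and Sox10 in 38 and 8. The rule thus left out unlike sets of barcodes here and there, and the part of this in the differences was not tested.

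Dorsal genes were higher in the members. Of 14 measured dorsal patterning genes 7 were higher and 0 lower, with a median log2 ratio of 1.02 against 0.07 over all measured genes. Emx1, a homeobox gene of the cortex, was found in 30 of the 153 members at 27.8 CPM and in 2.17% of the barcodes of the other library at 3.85 CPM. After thinning the shares were 5.71% and 1.09%, with 95% intervals that overlap. Fezf2, a factor of cortical progenitors and deep-layer neurons, stood at 26.4 against 4.95 CPM and Tfap2c, a gene of cortical basal progenitors, at 28.5 against 1.10. Pax6 stood at 184 against 88.5 CPM, but it is a gene of the rule, so its levels describe the choice in part. Neurog2, at 106 against 1.10 CPM, and Eomes, at 64.1 against 3.30, came from the few members named above. Of 14 measured ventral genes 10 were lower and 1 higher. Dlx2 stood at 20.7 against 162 CPM, Dlx1 at 14.97 against 105 and Six3, a striatal gene, at 0.713 against 67.1, from 1 UMI in the members.

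Nkx2-1, the factor of the medial ganglionic eminence, had 0 UMIs in the members and stood at 28.6 CPM in the other library. With 0 counted as 3 UMIs it was 13.4-fold lower, and Gsx1, another ventral factor, with 0 UMIs against 28.0 CPM, 13.1-fold lower. The intervals of the ratios of members to the other library reached up to 0.0953 for Nkx2-1 and 0.0973 for Gsx1. The 1 ventral-list gene that was higher was Gas1, a co-receptor of Hedgehog, at 406 against 132 CPM, and its fellow co-receptor Cdon stood at 86.9 against 12.6. By these genes the members' library stood on the cortical side, against its label.

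Several astrocyte genes were lower in the members than in the barcodes of the other library. Of 34 measured astrocyte identity genes 8 were lower and 1 higher, with a median log2 ratio of -0.50 against 0.07 over all measured genes. Apoe stood at 1784 against 4253 CPM, Gja1, the gap junction protein connexin 43, at 77.7 against 165, Cldn10, a claudin, at 24.9 against 102 and Timp4, a protease inhibitor, at 22.8 against 124. Slc6a11, a rule gene, stood at 177 against 419 CPM and Slc7a10, a serine carrier, at 19.95 against 82.4. Slco1c1 was the 1 higher, at 148 against 63.2 CPM. BMP and ID genes showed no call in either direction among 14 measured, with Id3 at 1633 against 1577 CPM and Hes5 at 1157 against 1416.

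**Figure D5:**
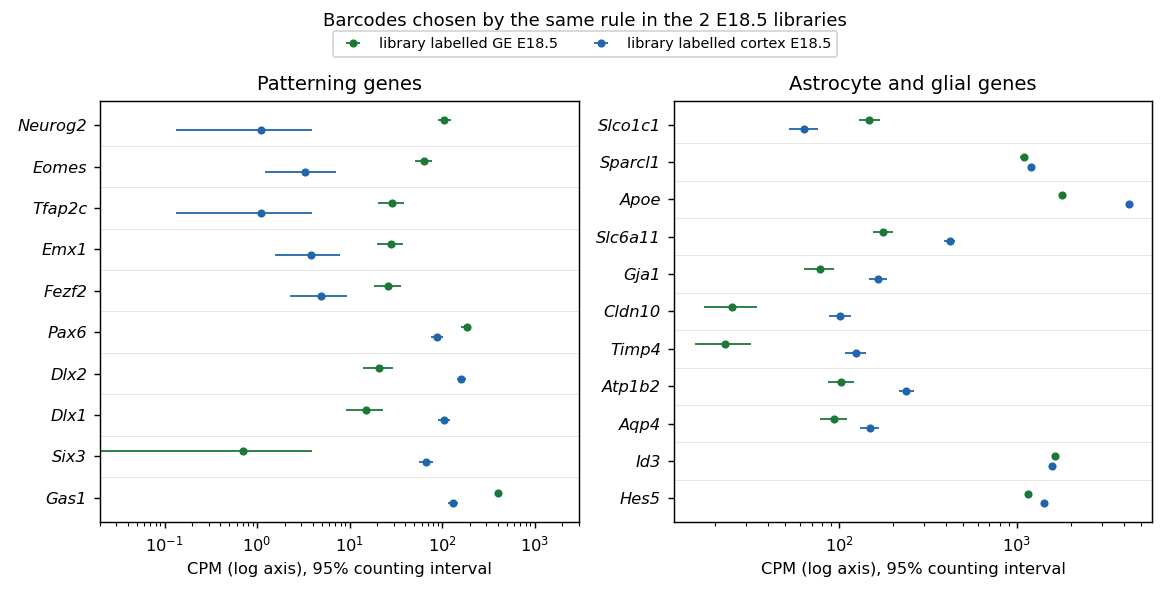
Level (CPM, log axis) of patterning genes (left) and astrocyte and glial genes (right) in the 153 barcodes of the library labelled GE E18.5 (green) and the 230 of the library labelled cortex E18.5 (blue) chosen by the same rule, with 95% counting intervals. Neurog2, Emx1 and Fezf2 are higher in green and Dlx2, Dlx1 and Six3 in blue, Apoe and Slc6a11 are higher in blue, and Id3 overlaps.

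The contrast with the other barcodes was repeated within the library labelled cortex E18.5, where it used the same rule and so the same choice. There 758 of 7726 measured genes were higher (9.81%) and 361 lower (4.67%). Of the 195 genes higher here, 168 were also higher there, and of the 320 lower here, 127 were lower there. Hes5 stood at 1416 CPM in the chosen barcodes of that library and 231 in its others, against 1157 and 345 here. Id3 stood at 1577 and 92.2 CPM there, and Grm3 at 70.9 and 2.02 CPM. Fos stood at 212 and 74.6 CPM there, against 185 and 72.5 here. Gfap, under the 20 CPM minimum for a call in both libraries, stood at 18.1 against 1.61 CPM there and at 17.1 against 14.2 here.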

How the data were processed

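Nestin-GFP sorted forebrain cells were loaded for the 10x Genomics 3' version 2 chemistry, per the labels' protocols, with 1 library for each of 4 groups. The authors deposited raw UMI counts per gene and barcode for each library, made with Cell Ranger 1.3.1 on mm10, and they also used Seurat, per the submitters' processing notes. Which annotation release and which rule for calling cells were used is not given in those sources. The members' library held 14528712 UMIs, the other E18.5 library 29427527, and the E15.5 libraries 29255083 (cortex by label) and 31173997 (GE by label), over 27998 genes, of which 56 symbols name more than 1 gene.

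Counts were summed over the barcodes of a group and divided by the group's total without 13 mitochondrial, 84 ribosomal protein and 8 haemoglobin genes (CPM). Levels have exact Poisson intervals, ratios exact conditional binomial intervals and shares Clopper-Pearson intervals, all at 95%, and a gene at 0 entered a ratio as 3 UMIs. With 1 library a group no p-value was computed. Intervals were not adjusted for the number of genes, so some calls can be counting error, more so where groups hold fewer UMIs. The calling rule was tested on simulated data. Doublets were scored with scanpy 1.11.5 (scrublet); the highest 0.8% of barcodes per 1000 were marked and were kept, and left out in an alternative. TMM factors came from edgeR 4.0.16 and size factors from DESeq2 1.42.0 (R 4.3.3). Other computing used numpy 2.4.6, scipy 1.17.1 and pandas 2.3.3. Promoters came from RefSeq on GRCm38.p6, which holds an entry for 18046 of the 27998 genes by symbol.

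Groups follow the labels, although every file name gives the other region. Members and gene lists were chosen with earlier results of these data known. The genes named were the 10 with the highest and the 10 with the lowest called ratio in each comparison, the 6 rule genes, up to 4 of each list and 18 genes named in any case, without predicted, mitochondrial, Xist, Tsix and Y-linked genes; other genes named in the text were chosen after their values were seen, as were the splits by Egfr, Olig2, Pax6 and Aqp4. Alternatives were other scalings, no CPM minimum, the mean of per-cell CPM, thinning, other rule thresholds and no doublet-like barcodes. Leaving out the deepest 5% of barcodes, and members with Eomes, were added after seeing the data.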

Additional observations from a re-analysis of the deposited data

Results flagged for a closer look

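In 4 genes the contrast between the chosen barcodes and the rest of their library had opposite directions in the 2 E18.5 libraries (the other being labelled cortex), each with an interval that excludes no change. The difference between libraries was not tested. Dock10 had a log2 ratio of -1.29 in the members (9.98 against 24.3 CPM, 14 UMIs) and of 2.23 in the other library (26.4 against 5.61 CPM). Hs3st1, a heparan sulfate sulfotransferase, had -1.15 (19.95 against 44.2 CPM, 28 UMIs) and 1.22 (20.3 against 8.73 CPM). Ifitm3, an interferon-induced membrane protein, had -1.11 (17.1 against 36.8 CPM, 24 UMIs) and 1.06 (47.3 against 22.6 CPM), and 1 barcode held 85 of its 377 UMIs in the others here. Ppp1r14c, an inhibitor of protein phosphatase 1, had -1.39 (10.7 against 27.9 CPM, 15 UMIs) and 1.68 (41.2 against 12.8 CPM). All 4 rest on few UMIs in the members.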

How the results depend on the processing

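No paired analysis was possible because each group holds 1 library. Of the counts, shares and member numbers recomputed under the alternatives, 87 kept within their limits and 29 did not; of the list medians 1121 stayed and 149 moved; of the named genes 4972 stayed, 558 moved and 6 reversed. Without a CPM minimum the genes higher and lower were 370 and 698 against other barcodes, 173 and 204 against radial glia, 574 and 739 against oligodendrocyte precursors and 316 and 356 against the other library. After thinning the genes higher were 424, 190, 648 and 229 in the same order. With the mean of per-cell CPM they were 356 against other barcodes and 562 against oligodendrocyte precursors, and without the deepest 5% of barcodes 545 against the latter. With at least 4 rule genes they were 309 against other barcodes and 156 against radial glia. With division called from 2 G2/M genes, 260 genes were lower in dividing members. Without the Pax6 and Hopx exclusion there were 234 members. Thinned shares of members with a UMI were 79.3% for Sparcl1, 50% for Pla2g7, 52.1% for Slc6a11, 51.4% for Grm5, 75.0% for Tnc, 57.9% for Aldh1l1, 59.3% for Olig2, 46.4% for Egfr, 5.71% for Emx1 and 45.7% for Pax6. The log2 ratios that changed sign were those to radial glia of Sp9 after thinning (0.20) and of Neurog2 without members that hold Eomes (-1.51), and those of dividing to other members of Neurod6 without doublet-like barcodes (0.27) and, with division called from 2 G2/M genes, of Ly6h (0.016), Neurod6 (2.53) and Neurog2 (4.34). The cause of these changes was not tested, other than that fewer UMIs, fewer cells or a dropped minimum are part of those settings. Thinning every barcode before the rule gave 148 members, 103 of them shared. Apart from Gfap, genes under 20 CPM in both groups were not described at this depth.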

Other observations

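Lipid genes were not described above. Of 26 measured lipid and cholesterol genes 7 were called higher than in the other barcodes and 0 lower (median log2 ratio 0.93), and 11 were higher than in oligodendrocyte precursors and 0 lower (0.94), while 0 were higher and 1 lower than in radial glia (0.07). Msmo1, an enzyme late in cholesterol synthesis, stood at 596 CPM in the members and 255 in the other barcodes, Hmgcs1, which acts early in it, at 1301 and 624, and Acsbg1, an acyl-CoA synthetase, at 196 and 87.8. Interferon and antigen presentation genes had 3 of 7 measured members lower than in radial glia, and 1 radial glial barcode held 29 of 46 UMIs of Isg15, 28 of 45 of Bst2 and 85 of 142 of Ifitm3. Hedgehog pathway genes had 0 of 6 called against the other barcodes, and 2 of 6 higher than in the other E18.5 library. Over all measured genes, 2.47% were higher against the other barcodes, 4.46% against oligodendrocyte precursors, 1.10% against radial glia and 1.88% against the other library. The shares that were lower were 4.05%, 4.80%, 1.38% and 2.24% in the same order.

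In the E15.5 libraries the same rule chose 14 and 18 barcodes. Aqp4 had a UMI in 1 of the 14 and 3 of the 18, Olig2 in 13 of the 14 and 3 of the 18, Dlx2 in 12 of the 14 and 2 of the 18, and Emx1 in 1 of the 14 and 14 of the 18. The library labelled cortex E15.5 holds the 14. These values were compared with no other group.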
